A study of Mus musculus with 12 samples.

Results

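Mouse group 2 innate lymphoid cells (ILC2s) cultured alone were compared with mouse eosinophils cultured alone, gene by gene, in RNA sequencing libraries. The comparison used 3 libraries of each cell, 6 of the 12 in the series. Its members were all genes that passed a filter on low counts in those 6 libraries, 14525 of the 49315 genes counted. A further 17303 genes had counts but did not pass the filter, and 17487 had none.

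Both cells came from C57BL/6 mice. ILC2s were taken from lung by removal of lineage-positive cells on beads and a sort, grown in culture with 4 cytokines (IL-2, IL-7, IL-25, IL-33), kept 48 h with IL-2 and IL-7, and washed. Eosinophils were the cells of peripheral blood that passed B220 and CD90 beads unbound. They were kept 24 h with IL-33 and washed. Both groups then spent 24 h alone in medium without cytokines. The other 6 libraries came from the same cells cultured together for that time and separated by flow cytometry. Cell and animal numbers are not in the labels, nor is a second sort of cells cultured alone before lysis. Whether replicates came from different cultures or animals is also unstated, and p-values then measure no more than the spread between these libraries. The cells differ in lineage, tissue of origin, purification and earlier cytokines at once, and these cannot be told apart.

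ILC2s are lymphocytes of tissues that lack rearranged antigen receptors and respond to epithelial alarmins such as IL-33. They depend on the transcription factors Gata3 and Rora, on IL-7, and share much of their machinery with helper T cells. Eosinophils are granulocytes that mature in bone marrow under Gata1, C/EBP factors and IL-5, carry basic granule proteins, and sense their surroundings through Fc, chemoattractant and paired immunoglobulin-like receptors. Both carry the IL-33 receptor chain encoded by Il1rl1.

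Library totals were 16769929 to 22928961 counts, so that 3 counts corresponded to 0.131 to 0.179 CPM, the level per 1e6 counts. Levels below are CPM scaled by the trimmed mean of M values (TMM) within the 6 libraries unless library totals are named. Log2 fold changes are ILC2s over eosinophils, ± SE, from edgeR's quasi-likelihood test. A gene was called at a Benjamini-Hochberg adjusted p under 0.05. The biological coefficient of variation was 7.50%. Every pair of replicates differed beyond counting noise. Chi-square per degree of freedom was 2.59 to 5.76 between ILC2 libraries and 6.74 to 19.5 between eosinophil libraries. Genes that overlap ribosomal RNA stood apart in ILC2 replicate 1 and eosinophil replicate 2, which touches Gm42418 and Lars2 below.

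Markers of other cells were summed by library totals, and their part in the results was not tested. In bulk RNA, fewer cells of a type and less RNA per cell cannot be told apart. In the eosinophil libraries, 7 of 12 neutrophil markers reached a mean of 1 CPM, and the sum of all 12 ran from 99.2 to 125.4 CPM, most of it Retnlg (96.0 CPM). S100a8, a defining neutrophil gene, was at 2.98 to 5.02 CPM. Of 12 monocyte and macrophage markers, 4 reached 1 CPM, with a sum of 422.9 to 467.4 CPM that was mostly Csf1r (369.5 CPM). Ly6c2 was at 37.1 to 45.4 CPM and Fcgr1 at 26.4 to 30.8 CPM, while the macrophage gene C1qa was at 0.157 to 0.282 CPM. Of 12 basophil and mast cell markers, 7 reached 1 CPM (sum 232.8 to 256.0 CPM, of which Gata2 made 153.9 CPM). Hdc was at 30.8 to 38.4 CPM, Cd200r3 at 28.8 to 37.5, Fcer1a at 3.27 to 4.03 and Ms4a2 at 2.19 to 3.16, while the basophil protease gene Mcpt8 was at 0.15 to 0.45 CPM. The same sum was 222.1 to 240.0 CPM in ILC2s, mostly Kit and Cd200r3. Of 8 platelet markers only Itga2b reached 1 CPM. In the ILC2 libraries 5 of 9 T cell markers reached 1 CPM (sum 206.6 to 220.5 CPM), with Trbc2 at 110.8 CPM and Cd3g at 84.6 to 89.8 CPM. Trac was at 1.44 to 2.68 CPM, Cd4 at most at 0.131 CPM, and Cd8a had 0 counts.

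Most of the transcriptome differed. Of 14525 genes, 11719 were called (80.7%), 5923 of them higher in ILC2s (40.8%) and 5796 higher in eosinophils (39.9%). With library totals in place of TMM the split was 8587 and 3664, because that scaling moves all genes by a median of 0.57 on the log2 scale. A difference of at least 8-fold was seen for 1482 genes on the ILC2 side (10.2%) and 1226 on the eosinophil side (8.44%). The libraries of the cells did not overlap for 11951 genes, against the 80.7% called. A total of 131 tested genes had 0 counts in eosinophils and 125 had 0 in ILC2s. Within 1.5-fold stood 2939 genes (20.2%), of which 97.2% were protein coding. Protein-coding genes made up 85.7% of the 1482 genes and 73.9% of the 1226, and long intergenic RNAs 3.44% and 6.36%. The median log2 fold change of all tested genes was 0.03.

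The genes that name the cells separated all libraries by cell. Gata3, the master transcription factor of ILC2s (ENSMUSG00000015619, chr2:9857078-9890034, minus strand, mm10), stood at 776, 759 and 770 CPM in the ILC2 libraries and at 2.32, 1.02 and 1.13 CPM in the eosinophil libraries. The difference was 9.02 ± 0.14 on the log2 scale (adjusted p = 7.8e-17 by edgeR). Siglecf, a sialic acid-binding lectin of eosinophils (ENSMUSG00000039013, chr7:43351341-43359531, plus strand), stood at 1399, 1394 and 1413 CPM in eosinophils and at 0.245, 0.279 and 0.180 CPM in ILC2s. The difference was -12.54 ± 0.11 on the log2 scale (adjusted p = 6.1e-19 by edgeR). All 3 libraries of each cell lay far from those of the other for both genes.

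Of 21 tested genes of the ILC2 identity list, 18 were higher in ILC2s and 3 in eosinophils, against 40.8% and 39.9% of all genes. The median log2 fold change was 7.45. This list and the next hold markers chosen with earlier results of these data known, so their counts are no test. Il7r, the IL-7 receptor chain, stood at 1433, 1445 and 1424 CPM against 5.46, 4.46 and 4.33 CPM (8.24 ± 0.09). Arg1, the arginase of lung ILC2s, stood at 611, 575 and 598 CPM against 4.03, 2.23 and 2.51 CPM (7.68 ± 0.12). The spread between libraries of a cell was small beside each of these gaps. The 3 list genes on the eosinophil side are all tied to ILC2s in other settings. Nfil3, a factor of innate lymphoid precursors, was at 12.7, 13.03 and 11.4 CPM in ILC2s and at 279, 275 and 284 CPM in eosinophils (-4.50 ± 0.07). Zbtb16, which encodes the precursor factor PLZF, was at 0.490, 0.512 and 0.180 CPM against 28.9, 39.1 and 26.7 CPM (-6.37 ± 0.25). Ptgdr2, which encodes the prostaglandin D2 receptor CRTH2 used to identify human ILC2s, had 2 counts in all ILC2 libraries and was at 7.30, 7.52 and 6.71 CPM in eosinophils. That is a ratio of 250, with a 95% counting interval of 68.7 to 2073. Intervals of this kind cover counting error only.

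Of 24 tested genes of the eosinophil identity list, 23 were higher in eosinophils, each at least 8-fold, against 39.9% and 8.44% of all genes. The median was -10.91. Alox15, a lipoxygenase, was at 4606, 4532 and 5044 CPM in eosinophils and at 1.32, 1.16 and 1.08 CPM in ILC2s (-11.96 ± 0.10). Cd24a, a surface glycoprotein, stood at 7384, 7367 and 7765 CPM, and its log2 fold change was -12.53 ± 0.09. Adgre1, an adhesion receptor gene of eosinophils and macrophages, stood at 1818, 1905 and 1883 CPM (-11.88 ± 0.11). Csf2rb, the receptor chain shared by IL-3, IL-5 and GM-CSF, stood at 3787, 4231 and 3784 CPM (-11.68 ± 0.11), with the caution that Csf2rb2 is a near copy. The granule protein gene Prg2 was at 429, 364 and 443 CPM (-12.66 ± 0.20). Eosinophil peroxidase, Epx, reached only 12.2, 12.2 and 12.1 CPM, against 2 counts in all ILC2 libraries, a ratio of 424.0 (116.8 to 3510). The single list gene not called was Il3ra, the private IL-3 receptor chain, at 46.7, 49.8 and 49.9 CPM in ILC2s and 42.7, 45.98 and 54.7 CPM in eosinophils. Its ranges overlapped (0.03 ± 0.09). With upper quartile scaling (0.264) or library totals (0.601) it was called higher in ILC2s.

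**Figure D1:**
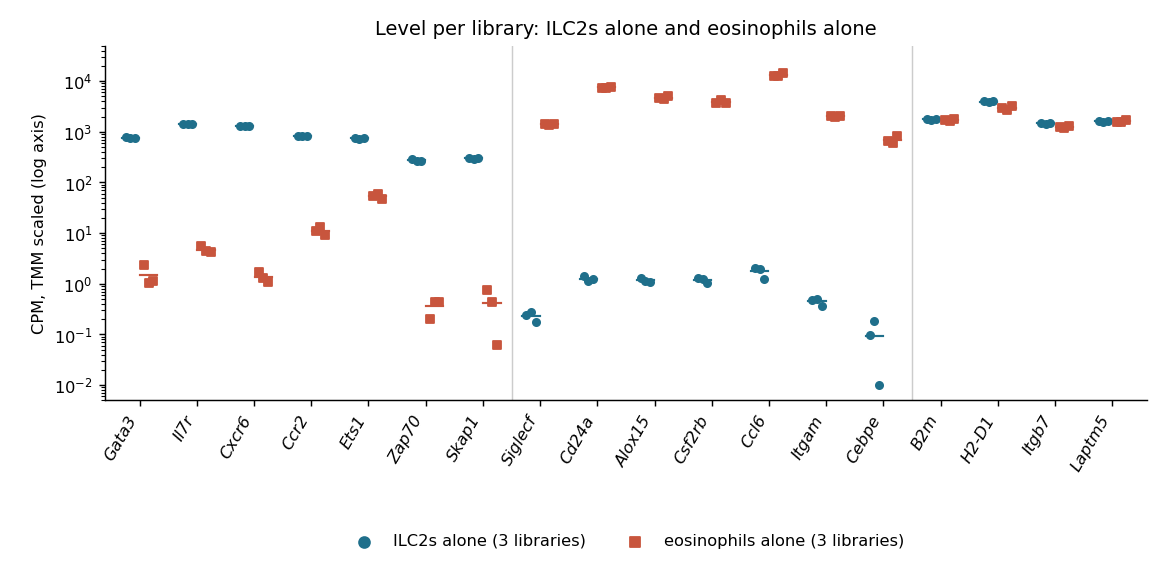
Level of 18 genes in each library, in TMM-scaled CPM on a log axis, with circles for the 3 ILC2 libraries, squares for the 3 eosinophil libraries and bars at the mean; a value of 0 (Cebpe in ILC2 replicate 3) is drawn at 0.01. The left panel holds ILC2 genes such as Gata3 (759 to 776 against 1.02 to 2.32 CPM), the middle panel eosinophil genes such as Siglecf, and the right panel abundant genes such as B2m whose values lie close together in both cells.

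The most abundant RNAs differed in kind. By library totals, Eef1a1, the translation elongation factor, led in ILC2s at 7656 ± 70.2 CPM, and the class I histocompatibility genes H2-K1 (5269 ± 134.6) and H2-D1 (4810 ± 125.7) were also among its 5 highest. In eosinophils Actb, beta actin, led at 15520 ± 998 CPM, followed by Tmsb4x (11180 ± 827) and the chemokine gene Ccl6 (10930 ± 865). Eosinophil RNA was the more concentrated. The 100 largest genes of a library took 23.5 ± 0.411% of counts there and 15.9 ± 0.0464% in ILC2s (n = 3 each, exact two-sided permutation p = 0.1, the smallest that 3 against 3 allow). Per kb of exon, Il1rl1 stood at 371 CPM and Gata3 at 193 CPM in ILC2s, and Siglecf at 502.5 CPM in eosinophils.

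DNA just before the start of the genes that define the cells is shown because its CpG content differed between the gene groups. Each stretch holds the 250 bases before the most upstream RefSeq start of the gene (GRCm38.p6), printed 5′ to 3′ on the gene's strand with CG pairs in capitals. The Gata3 stretch lies inside the longer transcripts of that gene.
Gata3, chr2:9878601-9878850, minus strand: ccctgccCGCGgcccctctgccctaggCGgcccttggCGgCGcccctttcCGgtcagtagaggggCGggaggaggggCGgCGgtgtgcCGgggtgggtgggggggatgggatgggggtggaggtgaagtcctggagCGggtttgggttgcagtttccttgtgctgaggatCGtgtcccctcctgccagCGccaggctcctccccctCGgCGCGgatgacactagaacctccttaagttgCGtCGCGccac
Il17rb, chr14:30008897-30009146, minus strand: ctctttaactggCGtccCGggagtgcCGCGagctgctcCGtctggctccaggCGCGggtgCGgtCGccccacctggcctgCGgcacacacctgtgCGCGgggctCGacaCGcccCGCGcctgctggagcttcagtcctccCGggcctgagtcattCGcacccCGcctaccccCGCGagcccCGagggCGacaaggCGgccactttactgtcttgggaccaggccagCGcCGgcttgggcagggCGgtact
Siglecf, chr7:43351091-43351340, plus strand: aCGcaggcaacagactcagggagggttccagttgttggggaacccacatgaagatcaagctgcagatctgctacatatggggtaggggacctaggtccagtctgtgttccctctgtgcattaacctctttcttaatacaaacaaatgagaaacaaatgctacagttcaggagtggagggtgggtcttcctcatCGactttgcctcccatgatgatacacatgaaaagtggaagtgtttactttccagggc
Ccr3, chr9:124021721-124021970, plus strand: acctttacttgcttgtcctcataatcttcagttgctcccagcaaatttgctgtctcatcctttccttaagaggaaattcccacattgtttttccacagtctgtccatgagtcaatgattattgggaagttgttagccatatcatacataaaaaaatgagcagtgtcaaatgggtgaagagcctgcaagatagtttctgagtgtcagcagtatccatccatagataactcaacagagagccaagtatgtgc
Il17rb encodes an IL-25 receptor chain of ILC2s (95.8 ± 1.94 CPM against 0.688 ± 0.398 CPM, n = 3 each, log2 fold change 7.10 ± 0.15). Ccr3 encodes the eotaxin receptor of eosinophils (1566, 1651 and 1589 CPM against 0.980, 0.977 and 1.11 CPM, -10.59 ± 0.09). The stretches of Gata3 and Il17rb hold 19 and 27 CG pairs, an observed to expected ratio of 0.633 and 0.838. Those of Siglecf and Ccr3 hold 2 and 0. Gata3 and Il17rb lie above the median ratio of the ILC2 identity list (0.513), and Ccr3 below that of the eosinophil identity list (0.131).

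A sequence was found by symbol for 9549 of 12061 tested protein-coding genes, 1963 of which have more than 1 listed start. Their median CpG ratio was 0.733. It was 0.602 over 946 genes at least 8-fold higher in ILC2s, 0.436 over 717 genes at least 8-fold higher in eosinophils, and 0.796 over 2309 genes within 1.5-fold. A ratio of 0.6 or more was held by 67.9% of all these genes, by 50.5% of the ILC2 group, by 37.5% of the eosinophil group and by 79.4% of genes within 1.5-fold. Median GC content moved less, from 60.4% within 1.5-fold to 57.2% on the eosinophil side. Genes of the eosinophil identity list with a sequence (18) had a median ratio of 0.131, those of the Fc and inhibitory receptor list (19) 0.124, and those of the ILC2 identity list (16) 0.513. The signalling lists ran in the other order, with 0.277 for antigen receptor signalling (16) and 0.321 for myeloid immunoreceptor signalling (15). These are descriptions over genes, with no test. The group within 1.5-fold favours well-counted genes by its definition, and the part of expression level in the CpG ratios was not tested.

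**Figure D2:**
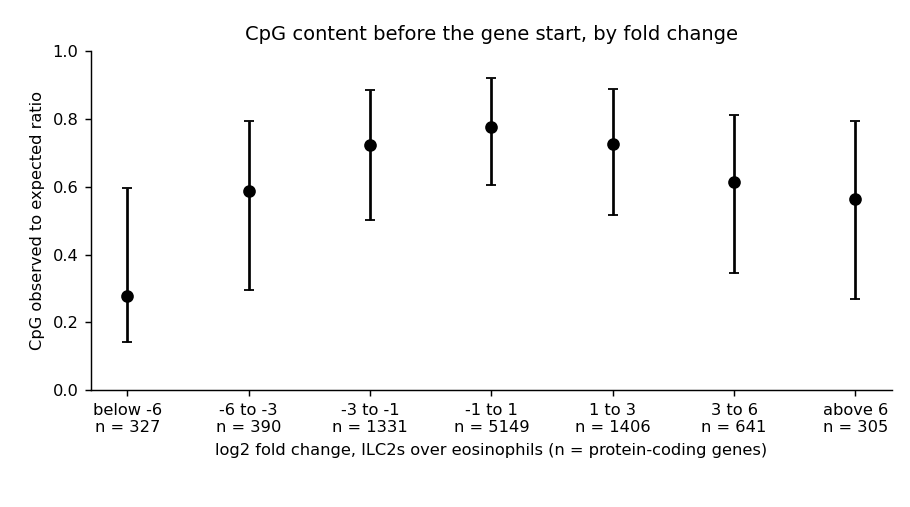
CpG observed to expected ratio in the 250 bases before the gene start (median and quartiles over genes) by bins of the log2 fold change, ILC2s over eosinophils. The median was 0.278 for genes below -6, 0.776 for those from -1 to 1 and 0.562 for those above 6.

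Searches of the same stretches, on both strands, used GAGGAAGT for PU.1, TTGCNNAA for C/EBP, AGATAA for GATA and TGTGGTT for RUNX factors. The motifs do not share a core, although their matches may overlap. GAGGAAGT was found for 2.59% of all 9549 genes, 4.60% of genes at least 8-fold higher in eosinophils and 2.22% of those at least 8-fold higher in ILC2s. TTGCNNAA was found for 7.404%, 11.0% and 8.03%, AGATAA for 6.07%, 8.65% and 7.4%, and TGTGGTT for 3.36%, 4.18% and 4.23%. Of the 19 Fc and inhibitory receptor genes with a sequence, 2 held GAGGAAGT and 7 held TTGCNNAA. TTGCNNAA was in 4 of 18 eosinophil identity, 1 of 15 myeloid immunoreceptor, 3 of 16 ILC2 identity and 3 of 16 antigen receptor genes. GAGGAAGT was in 1, 1, 0 and 0 of these. The 2 Fc and inhibitory receptor genes with GAGGAAGT are printed with the match in capitals.
Pirb, chr7:3720383-3720632, minus strand: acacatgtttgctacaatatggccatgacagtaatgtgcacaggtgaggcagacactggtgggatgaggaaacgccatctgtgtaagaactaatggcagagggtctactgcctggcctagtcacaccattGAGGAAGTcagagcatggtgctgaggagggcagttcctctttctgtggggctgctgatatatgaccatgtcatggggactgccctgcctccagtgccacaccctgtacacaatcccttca
Cd300ld, chr11:114989887-114990136, minus strand: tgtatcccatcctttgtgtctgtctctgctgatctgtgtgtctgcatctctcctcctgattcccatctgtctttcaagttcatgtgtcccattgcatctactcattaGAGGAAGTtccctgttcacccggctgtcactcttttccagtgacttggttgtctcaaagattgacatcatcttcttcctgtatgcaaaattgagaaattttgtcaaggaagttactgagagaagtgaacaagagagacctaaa
The matches lie 120 and 143 bases before the start. Pirb, which encodes the inhibitory receptor PIR-B, stood at 944, 907 and 947 CPM in eosinophils and at 0.294, 0.233 and 0.323 CPM in ILC2s (-11.63 ± 0.11). Cd300ld, an activating CD300 receptor, was at 200.3, 206 and 209 CPM in eosinophils and had 4 counts in all ILC2 libraries (-11.65 ± 0.17). The sequences come from RefSeq, and a match is a description, not a binding site.

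Lymphoid and myeloid transcription factors had medians of opposite sign. Of 26 tested lymphoid factors, 18 were higher in ILC2s and 4 in eosinophils (median 3.06), against 40.8% and 39.9% of all genes. Of 23 tested myeloid factors, 17 were higher in eosinophils and 3 in ILC2s (median -5.52), against 39.9% and 40.8%. The 3 became 5 with upper quartile scaling and 6 with library totals. Rora was at 512, 551 and 531 CPM in ILC2s and 0.887, 0.255 and 0.752 CPM in eosinophils (9.71 ± 0.14). Bcl11b, a T lineage factor also needed by ILC2s, was at 240, 234 and 226 CPM (9.20 ± 0.12). Pparg, a lipid-sensing nuclear receptor, was at 106, 105 and 110 CPM against 1.16, 0.701 and 0.940 CPM (6.84 ± 0.12).

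On the myeloid side, Spi1, which encodes PU.1, stood at 627, 584 and 717 CPM in eosinophils and at 0.196, 0.0931 and 0.252 CPM in ILC2s (-11.70 ± 0.16). Cebpe, needed for late granulocyte maturation, stood at 667, 608 and 810 CPM and at no more than 0.186 CPM in ILC2s (-12.87 ± 0.22). The GATA family was divided between the cells. Gata1 was at 340, 313 and 367 CPM in eosinophils (-10.58 ± 0.13) and Gata2 at 197, 174 and 192 CPM (-10.16 ± 0.16), while Gata3 was the member of ILC2s. Per kb, Gata3 stood at 193 CPM in ILC2s, and Gata1 and Gata2 at 139.5 and 34.8 CPM in eosinophils. The exceptions included Bcl6, a repressor counted in the myeloid list, at 50.9, 49.0 and 50.9 CPM in ILC2s and 5.59, 6.18 and 4.95 CPM in eosinophils (3.17 ± 0.10). Ikzf3, which encodes Aiolos, lay on the eosinophil side of the lymphoid list, at 250, 309 and 231 CPM against 102, 88.7 and 98.4 CPM (-1.45 ± 0.09). Fli1 (0.11 ± 0.06), Zfpm1 (-0.06 ± 0.08), Zeb1 (-0.07 ± 0.08) and Ikzf2 (-0.10 ± 0.06) were not called, and Ikzf2, Zeb1 and Zfpm1 take the other sign with library totals.

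The lists of receptor signalling genes also had medians of opposite sign. Of 22 tested genes of antigen receptor signalling, 18 were higher in ILC2s and 4 in eosinophils (median 5.08), against 40.8% and 39.9% of all genes. Of 22 tested genes of myeloid immunoreceptor signalling, 21 were higher in eosinophils and 1 in ILC2s (median -5.77, or -4.47 with genes at 0 counts set at their bound). The kinase gene Zap70 stood at 285, 266 and 272 CPM in ILC2s and at 0.205, 0.446 and 0.439 CPM in eosinophils (9.52 ± 0.13). Its relative Syk stood at 2.06, 2.37 and 2.66 CPM in ILC2s and at 998, 1084 and 1025 CPM in eosinophils (-8.76 ± 0.09). The adaptor gene Skap1 was at 304, 289 and 303 CPM in ILC2s (9.48 ± 0.17). Cd3g, a chain of the T cell receptor complex, was at 73.8, 70.1 and 69.7 CPM in ILC2s (9.28 ± 0.20), while Cd3e was at 4.26, 4.33 and 4.89 CPM (4.21 ± 0.38). Cd3d went the other way, at 4.16, 3.95 and 3.89 CPM in eosinophils against 0.833, 0.186 and 0.359 CPM (-3.14 ± 0.39). These CD3 levels stand beside the T cell marker sums given above.

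Lck, the Src kinase of T cells, was at 22.1, 20.2 and 17.8 CPM (7.75 ± 0.32), while Fyn was at 245, 238 and 242 CPM (6.65 ± 0.11). Per kb these levels were 6.84 and 55.4 CPM in ILC2s. In eosinophils the Src kinase genes Fgr (426, 415 and 437 CPM, -11.11 ± 0.13) and Lyn (302, 304 and 317 CPM, -2.25 ± 0.06) were the higher. Tyrobp, which encodes the adaptor DAP12, stood at 942, 901 and 1081 CPM (-10.90 ± 0.15), and Fcer1g, the Fc receptor gamma chain, at 332, 303 and 379 CPM (-8.84 ± 0.14).

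Genes labelled lymphoid and myeloid were set side by side in 28 chosen pairs. Not all are homologs, since Tcf7 and Tcf4, and Il2ra and Il3ra, belong to different families. In 22 pairs the lymphoid member was higher in ILC2s and the myeloid member in eosinophils. Over all pairs, 25 lymphoid entries were higher in ILC2s and 23 myeloid entries in eosinophils, where all genes gave 40.8% and 39.9%. Members were labelled lymphoid or myeloid when chosen, with earlier results of these data known. The counts describe that choice and are no test. Some genes stand in more than 1 pair, so pairs are not independent. Beside Zap70 and Syk stood Rasgrp1 (7.22 ± 0.12) with Rasgrp4 (-4.46 ± 0.07), and Plcg1 (3.48 ± 0.08) with Plcg2 (-4.47 ± 0.07). Cd247, the zeta chain, stood at only 5.73, 5.68 and 5.78 CPM in ILC2s (5.95 ± 0.43), opposite Fcer1g. Integrin alpha genes gave Itgae (5.03 ± 0.14) opposite Itgam (-12.13 ± 0.11).

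The other pairs are few. In Lat with Lat2 and in Tcf7 with Tcf4, both genes were higher in ILC2s. In Prkcq with Prkcd both were higher in eosinophils, where Prkcq, a kinase gene known from T cells, stood at 358, 377 and 369 CPM against 130, 121 and 130 CPM (-1.53 ± 0.06). The pair of Ikzf3 and Ikzf1 ran against its labels (-1.45 ± 0.09 and 0.91 ± 0.06). Lcp2, which encodes SLP-76, was higher in eosinophils at 647, 649 and 652 CPM against 261, 271 and 275 CPM (-1.27 ± 0.05), and its partner Blnk did not pass the count filter. Il2ra was higher in ILC2s (7.69 ± 0.13) and its partner Il3ra was not called. Stat3, higher in eosinophils at -0.28 ± 0.06 opposite Stat4 (3.00 ± 0.10), takes the other sign with library totals.

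**Figure D3:**
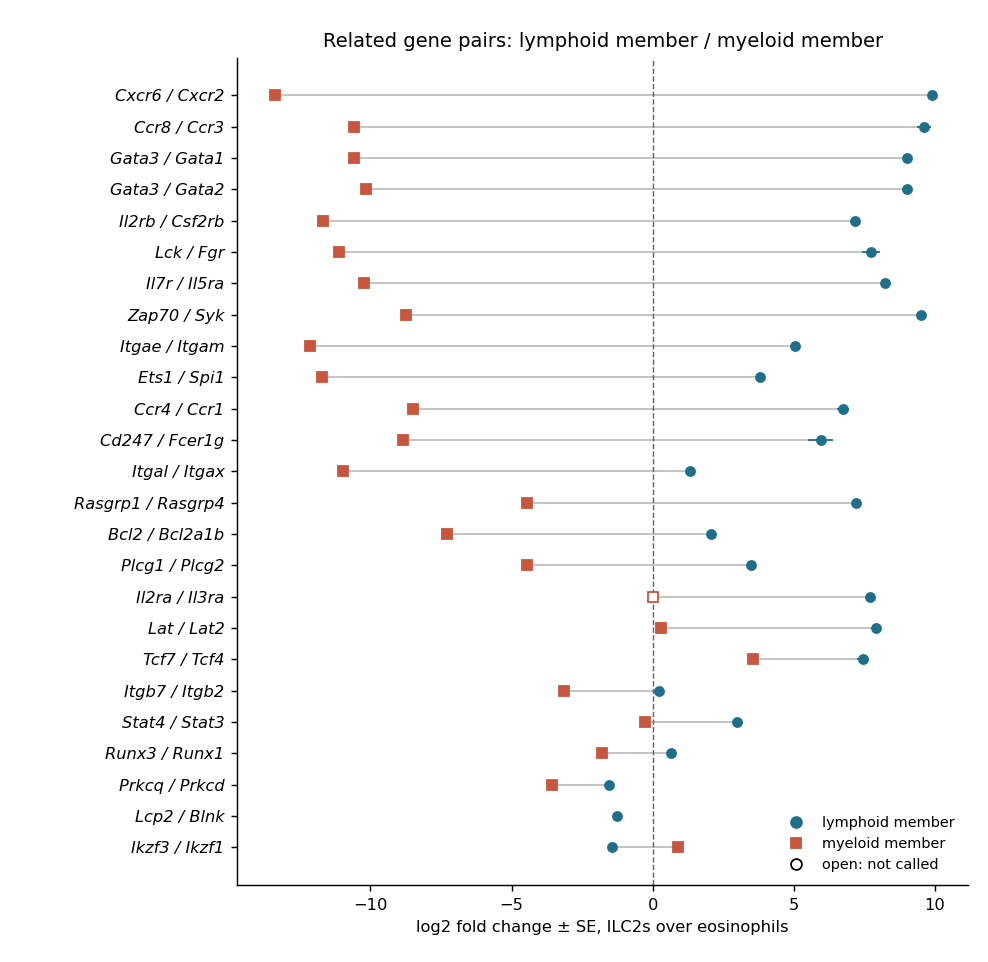
Log2 fold change ± SE, ILC2s over eosinophils, of 25 of the 28 pairs. Circles mark the lymphoid member, squares the myeloid member and open symbols genes not called. In 19 of those shown the circle lies to the right of 0 and the square to the left, as for Zap70 (9.52) and Syk (-8.76).

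Of 23 tested cytokine genes, 13 had their higher level in eosinophils and 8 in ILC2s (median -2.18), against 39.9% and 40.8% of all genes. Il1rn, the IL-1 receptor antagonist, was at 873, 851 and 919 CPM in eosinophils and no more than 0.245 CPM in ILC2s (-12.27 ± 0.14). Tnf was at 73.8, 68.4 and 81.9 CPM against 1.91, 1.30 and 1.37 CPM (-5.62 ± 0.13), and Hbegf, a growth factor of the EGF family, at 51.1, 49.9 and 48.4 CPM (-7.63 ± 0.17). Il1b had 2 counts in all ILC2 libraries and was at 21.2, 15.3 and 16.1 CPM in eosinophils, a ratio of 607.7 (167.7 to 5027). Il4, the type 2 switch cytokine, was at 105, 84.3 and 101 CPM in eosinophils against 7.06, 6.61 and 7.76 CPM (-3.75 ± 0.10). The ILC2 side held Lta, lymphotoxin alpha, at 15.8, 13.6 and 15.3 CPM (5.81 ± 0.25), Csf2, GM-CSF, at 12.7, 13.03 and 11.7 CPM (4.76 ± 0.22), and Calca, whose products include the neuropeptide CGRP, at 6.13, 9.21 and 6.57 CPM (5.53 ± 0.38). Csf1 (0.08 ± 0.06) and Il6 (-0.35 ± 0.24) were not called.

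Of 39 tested cytokine receptor genes, 18 had their higher level in ILC2s and 17 in eosinophils (median 0.05), shares close to the 40.8% and 39.9% of all genes. Il2ra was at 311, 329 and 327 CPM against 2.25, 1.53 and 0.940 CPM (7.69 ± 0.13), Il12rb1 at 170, 163 and 165 CPM (7.81 ± 0.12), Il9r at 237, 258 and 259 CPM (6.28 ± 0.10) and Il18r1 at 118, 131 and 124 CPM (4.84 ± 0.11). Kit, the stem cell factor receptor, was at 132, 145 and 134 CPM in ILC2s against 14.1, 15.7 and 12.5 CPM (3.28 ± 0.09). On the eosinophil side stood the IL-5 receptor chain and receptors of CSF1 and IL-10. Il5ra was at 150, 149 and 138 CPM (-10.23 ± 0.15), Csf1r at 439, 435 and 480 CPM (-11.30 ± 0.15) and Il10ra at 309, 306 and 311 CPM against 9.36, 8.52 and 8.37 CPM (-5.14 ± 0.07). Il13ra1 had 0 counts in ILC2s and stood at 9.14, 10.1 and 8.15 CPM, at least 212.4-fold higher in eosinophils. Such bounds take 3 counts for the whole group at 0 and use TMM-scaled totals. Il4ra, the chain it pairs with, was higher there by a log2 difference of -1.66 ± 0.06. Il17ra was not called (0.05 ± 0.05).

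All 11 tested chemokine genes were higher in eosinophils, against 39.9% of all genes, and 9 of them at least 8-fold. The median was -8.23, or -6.37 with genes at 0 counts set at their bound. Ccl6 stood at 12920, 12460 and 14680 CPM in eosinophils and at 2.06, 2.00 and 1.22 CPM in ILC2s (-12.92 ± 0.14), and its neighbour Ccl9 at 1058, 947 and 1083 CPM (-13.23 ± 0.14). Ccl22, a ligand of Ccr4, had 0 counts in ILC2s and was at 105, 43.7 and 54.9 CPM in eosinophils, at least 1559-fold higher. Ccl3 also had 0 counts there, with 23.7, 19.4 and 19.3 CPM in eosinophils, at least 481.5-fold higher. Ccl17, the other Ccr4 ligand, was at 39.2, 14.1 and 17.5 CPM in eosinophils (-8.23 ± 0.58).

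Eosinophil replicate 1 was the high library for both Ccr4 ligands. It also led for Aldh1a2, a retinoic acid-forming enzyme, at 14.7 CPM against 6.37 and 6.71 CPM, and for the epithelial and dendritic cell gene Plet1 at 18.8 CPM against 7.52 and 8.03 CPM. The class II histocompatibility genes H2-Aa (25.9 CPM against 11.0 and 11.2) and H2-Eb1 (26.9 CPM against 12.9 and 12.0), the invariant chain gene Cd74 (90.0 CPM against 42.2 and 48.3) and Lpl (32.9 CPM against 13.4 and 18.4) followed it. Among dendritic cell markers by library totals, Ccr7 was at 5.30, 1.88 and 3.30 CPM in the 3 eosinophil libraries, and the sum of 7 markers ran from 5.02 to 8.34 CPM. Their part in these values was not tested. None of these genes lost its call when that library was left out.

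Receptors for chemoattractants gave 10 higher in ILC2s and 12 in eosinophils of 22 tested, against the 40.8% and 39.9% of all genes. The median was -1.11, and 0.004 with no filter on low counts. Cxcr6, a receptor that holds lymphocytes in tissue, was at 1285, 1290 and 1287 CPM in ILC2s and at 1.71, 1.27 and 1.07 CPM in eosinophils (9.90 ± 0.11). Ccr2 (813, 845 and 842 CPM against 11.1, 13.3 and 9.22 CPM, 6.22 ± 0.10) and Ccr4 (39.5, 38.9 and 34.8 CPM, 6.74 ± 0.21) were also higher in ILC2s. Ccr8 had 2 counts in all eosinophil libraries and was at 37.6, 40.7 and 38.8 CPM in ILC2s, a ratio of 904.0 (250 to 7468). Eosinophils held Ccr3, Ccr1 (522, 498 and 507 CPM, -8.50 ± 0.10) and the complement receptor C3ar1 (356, 379 and 361 CPM, -9.86 ± 0.13). Cxcr2, the receptor of neutrophil chemokines, had 1 count in all ILC2 libraries and 221, 226 and 213 CPM in eosinophils, a ratio of 15350 (2755 to 606400). That level stands beside the neutrophil marker sum above. The ligands Ccl17 and Ccl22 were on the eosinophil side and their receptor Ccr4 on the ILC2 side.

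Granule and defence genes were higher in eosinophils for 20 of 22 tested and in ILC2s for 2, Gzmb and Prf1 of cytotoxic granules. All genes gave 39.9% and 40.8%. The list median was -8.66, or -6.95 with genes at 0 counts set at their bound. The ribonuclease gene Ear6 had 2 counts in ILC2s and 235, 233 and 252 CPM in eosinophils, a ratio of 8370 (2317 to 69130). Its relatives Ear1 and Ear2 stood at 26.9, 30.3 and 34.7 CPM and at 21.8, 19.4 and 24.8 CPM, and reads of this family may be shared between copies. Chil3, a chitinase-like protein, had 0 counts in ILC2s and 17.8, 7.01 and 7.52 CPM in eosinophils, at least 246.5-fold higher, again with replicate 1 high. Retnla, a resistin-like secreted protein, was at 183, 123 and 161 CPM (-10.50 ± 0.24). Cd63, a granule membrane protein, was at 789, 732 and 835 CPM against 10.6, 8.52 and 9.59 CPM (-6.36 ± 0.09).

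Fc and inhibitory receptors were higher in eosinophils for 20 of 22 tested genes, 19 of them at least 8-fold, against 8.44% of all genes (median -10.80). Cd300lf stood at 1555, 1530 and 1529 CPM (-12.04 ± 0.10) and the inhibitory Fc receptor Fcgr2b at 650, 640 and 636 CPM (-12.21 ± 0.13). The ILC2 side held Klrg1, an inhibitory receptor for cadherins, at 238, 229 and 230 CPM against 9.48, 8.66 and 10.2 CPM (4.62 ± 0.08). Cd200r1 was also higher there, at 161, 168 and 176 CPM against 64.4, 73.8 and 70.2 CPM (1.27 ± 0.07).

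Of 27 tested pattern recognition genes, 17 were higher in eosinophils and 8 in ILC2s (median -1.97), against 39.9% and 40.8% of all genes. The C-type lectin gene Clec12a was at 362, 319 and 383 CPM in eosinophils (-10.96 ± 0.18), and Tlr13, a sensor of bacterial RNA, at 104, 122 and 104 CPM (-10.76 ± 0.20). Clec7a, which encodes dectin-1, had 2 counts in ILC2s and 29.5, 23.6 and 22.1 CPM in eosinophils, a ratio of 869.8 (240.2 to 7191). Of the 8 genes higher in ILC2s, Tlr1 alone differed at least 8-fold, at 95.5, 99.4 and 103 CPM in ILC2s and 0.7504, 0.127 and 0.188 CPM in eosinophils (8.14 ± 0.19). Its dimer partner Tlr2 was not called, at 5.98, 5.21 and 4.60 CPM in ILC2s and 6.14, 5.16 and 5.89 CPM in eosinophils (-0.13 ± 0.18, of the other sign with library totals). Tmem173, which encodes the DNA-sensing adaptor STING, was higher in ILC2s (92.3, 92.4 and 100.2 CPM against 24.9, 21.5 and 28.3 CPM, 1.93 ± 0.09).

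Of 20 tested lipid mediator genes, 12 were higher in eosinophils and 7 in ILC2s (median -1.52), against 39.9% and 40.8% of all genes. Enzymes and receptors stood on both sides. Pla2g4a, the cytosolic phospholipase, was at 141, 153 and 136 CPM (-10.84 ± 0.17), Alox5 at 1609, 1623 and 1759 CPM against 23.7, 26.5 and 27.3 CPM (-6.01 ± 0.08), and its activating protein Alox5ap at 1582, 1452 and 1803 CPM (-7.42 ± 0.10). Ptgs1 (595, 638 and 606 CPM, -8.31 ± 0.14) and the thromboxane synthase gene Tbxas1 (424, 411 and 426 CPM, -10.11 ± 0.13) were also higher in eosinophils. Both receptors of cysteinyl leukotrienes were higher in ILC2s. Cysltr1 was at 104, 106 and 110 CPM against 1.501, 0.828 and 1.13 CPM (6.54 ± 0.12), and Cysltr2 at 16.6, 15.7 and 16.2 CPM (6.68 ± 0.33). Hpgds, which forms prostaglandin D2, was at 58.2, 68.2 and 63.8 CPM in ILC2s (6.55 ± 0.20), while its receptor Ptgdr2 was on the eosinophil side.

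Genes of the NADPH oxidase and of redox defence were higher in eosinophils for 17 of 20 tested and in ILC2s for 2 (median -2.88). All genes gave 39.9% and 40.8%. The oxidase subunit genes Cybb (930, 984 and 943 CPM, -11.74 ± 0.12) and Ncf1 (2967, 2958 and 3197 CPM, -11.29 ± 0.13) led. Catalase, Cat, stood at 575, 582 and 598 CPM against 73.2, 72.5 and 73.2 CPM (-3.002 ± 0.06), and the glutathione peroxidase gene Gpx1 at 1759, 1571 and 1973 CPM against 69.8, 66.8 and 65.7 CPM (-4.71 ± 0.09). The superoxide dismutase genes Sod1 (1.17 ± 0.07) and Sod2 (0.61 ± 0.07) were the pair higher in ILC2s, and Prdx1 was not called (0.03 ± 0.07).

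Glycolysis genes were higher in eosinophils for 18 of 20 tested, 10 of them at least 8-fold (median -2.99). All genes gave 39.9% and 8.44%. Gapdh was at 3918, 3787 and 4256 CPM against 274, 268 and 279 CPM (-3.87 ± 0.06), Tpi1, triose phosphate isomerase, at 1478, 1430 and 1533 CPM against 55.9, 48.1 and 49.7 CPM (-4.85 ± 0.07), and Slc2a1, the glucose transporter GLUT1, at 650, 600 and 672 CPM against 78.0, 71.2 and 77.6 CPM (-3.08 ± 0.07). The lactate exporter Slc16a3 was at 1223, 1205 and 1340 CPM against 15.3, 14.01 and 13.1 CPM (-6.47 ± 0.08). The other 2 tested genes were higher in ILC2s. Slc16a1, the relative of that exporter, was at 4.81 ± 0.39, and the muscle-type phosphofructokinase gene Pfkm was at 32.3, 31.8 and 34.9 CPM against 1.91, 1.72 and 1.19 CPM (4.36 ± 0.15).

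Oxidative phosphorylation genes differed by small amounts. Of 26 tested, 16 were higher in eosinophils and 5 in ILC2s, against 39.9% and 40.8% of all genes, and none reached 8-fold (median -0.38). With library totals the median was 0.19, with 9 and 14 genes, so that no direction is drawn. Without eosinophil replicate 2, 3 genes were higher in ILC2s. Ndufa4 (-1.76 ± 0.09), Ndufa1 (-1.64 ± 0.09) and Cox7a2 (-1.41 ± 0.08) lay at one end, Sdha (0.66 ± 0.05) at the other, and Cox4i1 was at 0.01 ± 0.07. All 12 tested genes of the mitochondrial genome were higher in eosinophils (median -1.59), against 39.9% of all genes. With library totals 8 of them were, where 3664 of all 14525 genes were. The gene mt-Cytb, of cytochrome b, stood at 4706, 3459 and 3747 CPM against 1179, 1211 and 1210 CPM (-1.73 ± 0.09). The call of mt-Nd5 (-0.34 ± 0.10) is lost with DESeq2 and with upper quartile scaling, and its sign turns with library totals. Mitochondrial genes took 1.64 ± 0.302% of counts in eosinophils, with replicate 1 highest at 1.99%, and 1.14 ± 0.0116% in ILC2s (n = 3 each, exact two-sided permutation p = 0.1). The difference of -0.505 percentage points became -0.334 without that replicate.

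Genes of ribosomal proteins ran the other way. Of 82 tested, 78 were higher in ILC2s, against 40.8% of all genes, 3 were higher in eosinophils (1 with library totals), and none of the 78 reached 8-fold (median 1.27, and 1.85 with library totals). Together these genes took 5.33 ± 0.137% of counts in ILC2s and 1.46 ± 0.132% in eosinophils (n = 3 each, exact two-sided permutation p = 0.1). Rpl3 was at 1112, 1018 and 1076 CPM against 230, 203 and 239 CPM (2.25 ± 0.07), and Rps18 at 750, 720 and 741 CPM against 166, 139 and 179 CPM (2.19 ± 0.08). The 3 exceptions are gene variants rather than standard ribosomal components. Rps27l was at -0.51 ± 0.08, a value of the other sign with library totals, and Rpl7l1 at -0.71 ± 0.07, whose call is lost there. Rpl3l, known from striated muscle, had 2 counts in ILC2s and 6.28, 4.71 and 7.59 CPM in eosinophils. Rps27a, whose product also carries ubiquitin, was not called (-0.10 ± 0.07, of the other sign with library totals).

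Cell cycle genes were higher in ILC2s for 23 of 34 tested and in eosinophils for 7 (median 1.35). All genes gave 40.8% and 39.9%. Top2a, a topoisomerase of dividing cells, was at 64.9, 65.8 and 65.1 CPM against 4.71, 2.87 and 4.83 CPM (3.98 ± 0.13), Cenpe at 17.6, 21.7 and 21.5 CPM against 0.546, 0.828 and 0.627 CPM (4.91 ± 0.20), and Cdk1 at 7.84, 5.96 and 5.32 CPM against 0.341, 0.318 and 0.251 CPM (4.36 ± 0.32). Mki67, the proliferation antigen, differed less, at 112, 107 and 110 CPM against 48.9, 69.4 and 46.7 CPM (0.99 ± 0.11). The D cyclins split. Ccnd2 was at 287, 286 and 288 CPM in ILC2s against 31.5, 27.4 and 27.8 CPM (3.31 ± 0.07), and Ccnd3 at 993, 959 and 1110 CPM in eosinophils against 114, 114 and 117 CPM (-3.15 ± 0.07). The entry genes E2f1 (-1.45 ± 0.11) and Ccne1 (-2.49 ± 0.23) and the replication clamp gene Pcna (-0.93 ± 0.07) were higher in eosinophils.

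Genes of the BCL2 family and of survival differed in level between the cells, in both directions. Of 24 tested, 15 were higher in eosinophils and 9 in ILC2s (median -1.06), against 39.9% and 40.8% of all genes. Bcl2 was at 227, 236 and 229 CPM in ILC2s against 49.7, 57.1 and 59.3 CPM (2.06 ± 0.07). Mcl1 was at 1871, 1802 and 1839 CPM in eosinophils against 342, 340 and 345 CPM (-2.42 ± 0.05), and Bcl2l1, which encodes BCL-XL, at 256, 257 and 272 CPM against 21.4, 20.4 and 19.4 CPM (-3.68 ± 0.07). The Bcl2a1 genes, also protective, were higher in eosinophils, Bcl2a1b by -7.28 ± 0.16, but are near copies whose reads may be shared. The death-promoting BH3 genes were divided as well. Bid was at 110, 111 and 116 CPM in eosinophils against 4.12, 5.35 and 5.07 CPM (-4.52 ± 0.09), while Bbc3 (2.16 ± 0.07), Bcl2l11 (1.85 ± 0.07) and Bik (6.07 ± 0.30) were higher in ILC2s.

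Genes of NF-kB and the immediate early response were higher in eosinophils for 25 of 31 tested and in ILC2s for 6 (median -1.83). All genes gave 39.9% and 40.8%. Dusp1, a MAP kinase phosphatase, was at 184, 165 and 176 CPM against 8.48, 7.12 and 7.83 CPM (-4.49 ± 0.08), Ier3 at 58.5, 45.7 and 58.6 CPM (-5.95 ± 0.17), and Tnfaip3, a brake on NF-kB, at 321, 321 and 304 CPM against 67.4, 64.7 and 67.0 CPM (-2.25 ± 0.06). Myc was on the ILC2 side, at 25.7, 26.3 and 29.1 CPM against 1.09, 0.382 and 1.07 CPM (5.00 ± 0.20), with Traf1 (3.05 ± 0.07) and Jun (1.85 ± 0.20). In the JAK and STAT list 15 of 23 were higher in eosinophils and 7 in ILC2s (median -0.28), against 39.9% and 40.8% of all genes. With library totals the median was 0.29, with 13 higher in ILC2s and 8 in eosinophils. Among the feedback genes of this list, Cish, Socs1, Socs2 and Socs3 were higher in eosinophils and Socs5 and Socs7 in ILC2s. Cish stood at 926, 933 and 938 CPM against 98.3, 107 and 107 CPM (-3.16 ± 0.06), Socs1 at 438, 428 and 510 CPM against 25.7, 21.5 and 23.5 CPM (-4.28 ± 0.09), and Socs3 at 144, 144 and 141 CPM against 2.74, 3.30 and 3.05 CPM (-5.55 ± 0.09). Jak3, the kinase bound by the common gamma chain, was higher in ILC2s at 381, 386 and 381 CPM against 54.4, 48.0 and 51.4 CPM (2.90 ± 0.06).

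Of antigen presentation genes, ILC2s had the higher level of 8 of 18 tested and eosinophils of 7 (median 0.21), close to the 40.8% and 39.9% of all genes. Neither the class I nor the class II pathway lay on a single side, since the class II genes H2-DMa and Ctss were higher in ILC2s and the class I loading gene Tapbp in eosinophils (H2-DMa and Tapbp were named after their values were seen). H2-K1 was at 4416, 4198 and 4379 CPM in ILC2s against 1314, 1217 and 1424 CPM (1.72 ± 0.06), and Nlrc5, the activator of class I genes, at 310, 346 and 340 CPM against 24.9, 28.1 and 24.8 CPM (3.68 ± 0.08). H2-Q4 (3.45 ± 0.07), H2-Q6 (4.59 ± 0.08) and H2-Q7 (5.34 ± 0.07) were also higher in ILC2s. They stand outside the list and are near copies whose reads may be shared. B2m, whose product pairs with class I chains, was not called, at 1761, 1749 and 1778 CPM and 1738, 1629 and 1815 CPM (0.03 ± 0.06). The class II genes H2-Aa (-5.56 ± 0.44), H2-Eb1 (-3.52 ± 0.36) and Cd74 (-6.06 ± 0.33) were higher in eosinophils, most of all in replicate 1.

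Interferon response genes were higher in ILC2s for 12 of 24 tested and in eosinophils for 8 (median 0.45), against the 40.8% and 39.9% of all genes. The counts were 14 and 5 with upper quartile scaling and 17 and 5 with library totals. The guanylate-binding and GTPase genes Gbp2 (64.7, 60.6 and 57.5 CPM against 4.09, 1.91 and 2.19 CPM, 4.49 ± 0.16) and Ifi47 (68.8, 68.2 and 68.9 CPM against 2.73, 3.82 and 2.45 CPM, 4.51 ± 0.12) lay on the ILC2 side. Oasl2 (51.4, 59.3 and 54.2 CPM against 0.392, 0.419 and 1.11 CPM, -6.32 ± 0.19) and Ifitm1 (45.9, 47.1 and 42.5 CPM, -6.60 ± 0.17) lay on the eosinophil side. Irf9, part of the interferon signalling complex, was not called (-0.13 ± 0.06, of the other sign with library totals).

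TNF family members were higher in ILC2s for 11 of 24 tested and in eosinophils for 9 (median 0.04, and -0.11 with a filter at 1 CPM in 3 libraries), near the 40.8% and 39.9% of all genes. The ligand Tnfsf11, known as RANKL, was at 47.9, 42.9 and 43.1 CPM in ILC2s with 0 counts in eosinophils, at least 685.6-fold higher. Tnfsf10, which encodes TRAIL, was at 93.6, 98.8 and 99.6 CPM in ILC2s (8.77 ± 0.16), and Tnfrsf25, the receptor DR3, at 133, 132 and 134 CPM (8.86 ± 0.14). Eosinophils held Fas (91.1, 79.7 and 85.6 CPM against 11.8, 13.4 and 12.4 CPM, -2.77 ± 0.08), Ltbr (-6.33 ± 0.26) and Tnfrsf13b (-3.74 ± 0.09). Costimulation and checkpoint genes gave 10 higher in ILC2s and 8 in eosinophils of 21 (median 0.17, and -0.05 without ILC2 replicate 3), also near those shares. Icos was at 226, 244 and 240 CPM in ILC2s (9.15 ± 0.15). Pdcd1, which encodes PD-1, had 1 count in eosinophils and 17.6, 19.5 and 19.9 CPM in ILC2s, a ratio of 884.4 (158.5 to 34960). Vsir, which encodes VISTA, was at 1577, 1558 and 1716 CPM in eosinophils against 87.1, 82.2 and 79.1 CPM (-4.29 ± 0.07).

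Genes of neuropeptide and amine pathways were higher in ILC2s for 12 of 17 tested genes and in eosinophils for 5. All genes gave 40.8% and 39.9%. The list median was 5.41, or 4.98 with genes at 0 counts set at their bound. Vipr2, a receptor of vasoactive intestinal peptide, was at 224, 230 and 225 CPM in ILC2s and at no more than 0.136 CPM in eosinophils (11.25 ± 0.16). Nmur1, the neuromedin U receptor, had 3 counts in eosinophils and 70.7, 68.3 and 68.1 CPM in ILC2s, a ratio of 1064 (363.7 to 5159). Both parts of the CGRP receptor were in ILC2s, Ramp1 at 120, 114 and 110 CPM (8.75 ± 0.14) and Calcrl at 76.8, 77.2 and 78.1 CPM (5.41 ± 0.11), beside the CGRP gene Calca. The eosinophil side held the histamine genes Hdc (46.5, 38.6 and 37.99 CPM, -6.93 ± 0.25) and Hrh1 (9.82, 10.5 and 11.1 CPM with 0 counts in ILC2s, at least 244.0-fold higher). The Hdc level stands beside the basophil and mast cell sum given above.

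Some neighbouring genes, among them members of families, differed in the same direction. All 8 tested Gimap genes, small GTPases of lymphocyte survival, were higher in ILC2s (median 5.07), against 40.8% of all genes. They ran from Gimap9 at 0.28 ± 0.07 to Gimap3, at 398, 414 and 420 CPM against 0.955, 1.59 and 0.376 CPM (8.71 ± 0.16). Runs of at least 3 neighbouring tested protein-coding genes, all at least 8-fold higher in the same cell, numbered 44 for ILC2s and 35 for eosinophils. The longest held 6 genes. Of all tested genes, 10.2% and 8.44% differed that far, and whether runs exceed what those shares give was not tested. Untested genes were skipped, and not all runs are families, such as that from Plscr1 to Chst2 over 3157 kb. The run on chromosome 1 from 173468485 to 173942672 (mm10) held Ifi206, Ifi213, Ifi209, Ifi208, Mndal and Ifi203 of the DNA-sensing AIM2-like family, all higher in ILC2s with log2 fold changes of 5.84 to 10.27. Ifi203 was at 216, 229 and 218 CPM in ILC2s (10.27 ± 0.17). A run of eosinophil genes on chromosome 17 from 48125605 to 48327024 held Trem1, Trem3 and Treml2 of the TREM receptors. Another, on chromosome 11 from 83525778 to 83664683, held Ccl5, Ccl9, Ccl6, Ccl3 and Ccl4, and the next from 114890041 to 115048409 held 5 genes of the CD300 cluster. The run with Pirb, on chromosome 7 from 3711409 to 4063204, holds near-identical copies whose counts are uncertain.

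Of 23 integrin and adhesion genes, 13 were higher in ILC2s and 9 in eosinophils (median 0.38), against the 40.8% and 39.9% of all genes. Cd44 was at 701, 717 and 702 CPM and 717, 730 and 704 CPM (-0.02 ± 0.05, of the other sign with upper quartile or library total scaling). The sterol and lipid list gave 14 higher in eosinophils and 9 in ILC2s of 28 (median -0.33), against 39.9% and 40.8% of all genes. With library totals the counts were 8 and 14 and the median 0.24, so that no direction is drawn. Fasn, fatty acid synthase, was higher in ILC2s (106, 102 and 105 CPM against 26.7, 30.2 and 29.5 CPM, 1.86 ± 0.07). Of 28 lysosome genes 21 were higher in eosinophils, against 39.9% of all genes, and 5 in ILC2s (median -0.91). The 5 became 9 with library totals, and 3 without ILC2 replicate 1, without ILC2 replicate 3 or without eosinophil replicate 2. Ctsh, a cathepsin, was at 1064, 1006 and 1129 CPM against 5.88, 6.10 and 5.46 CPM (-7.52 ± 0.09), while Laptm5 was at 1623, 1597 and 1624 CPM and 1561, 1557 and 1709 CPM (0.01 ± 0.06).

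**Figure D4:**
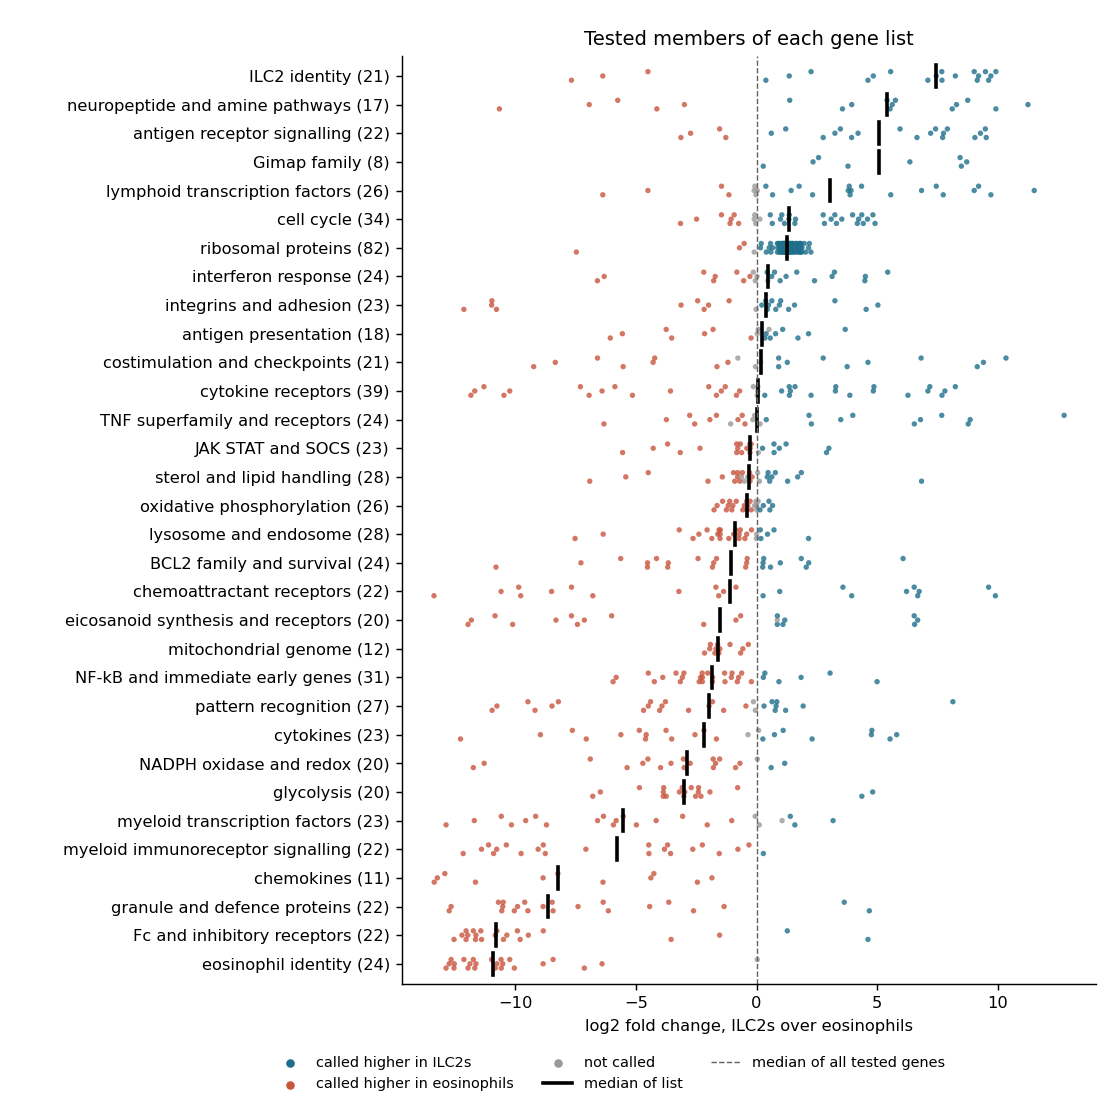
Log2 fold change, ILC2s over eosinophils, of each tested member of 32 gene lists, coloured by call, with the median of each list as a black bar and the median of all tested genes (0.03) as a dashed line; numbers in brackets are tested members. The eosinophil identity list lies lowest at -10.91 and the ILC2 identity list highest at 7.45.

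A few genes were abundant in both cells at close levels. H2-D1 (0.40 ± 0.06), Itgb7 (0.22 ± 0.05) and Arhgap45 (0.16 ± 0.05) were called with differences below 1.5-fold, and B2m, Laptm5 and Ly6e (0.09 ± 0.07) were not called. Itgb7, the beta 7 integrin, stood at 1504, 1420 and 1463 CPM in ILC2s and 1258, 1212 and 1300 CPM in eosinophils. Rsrp1 (-0.18 ± 0.06) takes the other sign with upper quartile or library total scaling. Gm42418, which overlaps ribosomal RNA, was at 1565, 520 and 627 CPM in ILC2s and at 798, 5118 and 1278 CPM in eosinophils. Its log2 fold change of -1.41 ± 0.53 became -0.22 without eosinophil replicate 2 and was then not called. The call was also lost with upper quartile scaling, library totals, DESeq2 and limma-voom, and without ILC2 replicate 2 (-1.12) or 3 (-1.20). Lars2, at 553, 123 and 148 CPM against 339, 1256 and 538 CPM, went from -1.38 ± 0.49 to -0.70 without eosinophil replicate 2 and lost its call there, with library totals, with DESeq2, and without ILC2 replicate 2 (-1.02) or 3 (-1.06).

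The same contrast in cells cultured together showed which differences stayed. There 12296 of 14634 tested genes were called (84.0%). Of the 11301 genes called alone and tested there, 8776 were called in the same direction and 1236 in the opposite one. Of 2497 genes at least 8-fold different alone and tested there, 2417 were called in the same direction and 40 in the opposite one. The difference between the contrasts, tested over all 12 libraries, was called for 8114 of 15745 genes (51.5%). Siglecf stood at 1346 CPM in cocultured eosinophils and 0.251 CPM in cocultured ILC2s, and Gata3 at 0.309 and 688 CPM. Siglecf gave -12.54 ± 0.11 alone and -12.37 ± 0.10 together, a difference that was not called (-0.19 ± 0.35).

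Some genes changed sides. Tpi1 and Pgk1 of glycolysis, higher in eosinophils alone (-4.85 ± 0.07 and -2.98 ± 0.06), were higher in ILC2s after coculture (1.85 ± 0.05 and 2.57). Egln3, an oxygen-sensing hydroxylase, went from -3.34 ± 0.06 to 3.13, and Vegfa, the vascular growth factor, from -4.60 ± 0.09 to 2.85. Cyp11a1, the first enzyme of steroid synthesis, went from -3.58 ± 0.07 to 3.09 and Socs3 from -5.55 ± 0.09 to 1.35. Il13, the ILC2 effector cytokine, stood at 31.9, 33.5 and 32.0 CPM in ILC2s alone and 145, 139 and 157 CPM in eosinophils alone (-2.18 ± 0.07). It was at 5.24 ± 0.08 after coculture, with a mean of 971 CPM in ILC2s and 25.8 CPM in eosinophils. In each of these 7 genes the difference between the contrasts was called by edgeR, with the largest adjusted p at Vegfa (7.0e-22). Those other than Il13 were picked for opposite calls in these libraries, and Il13 after its values were seen. The calls therefore add no support to the change of side.

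**Figure D5:**
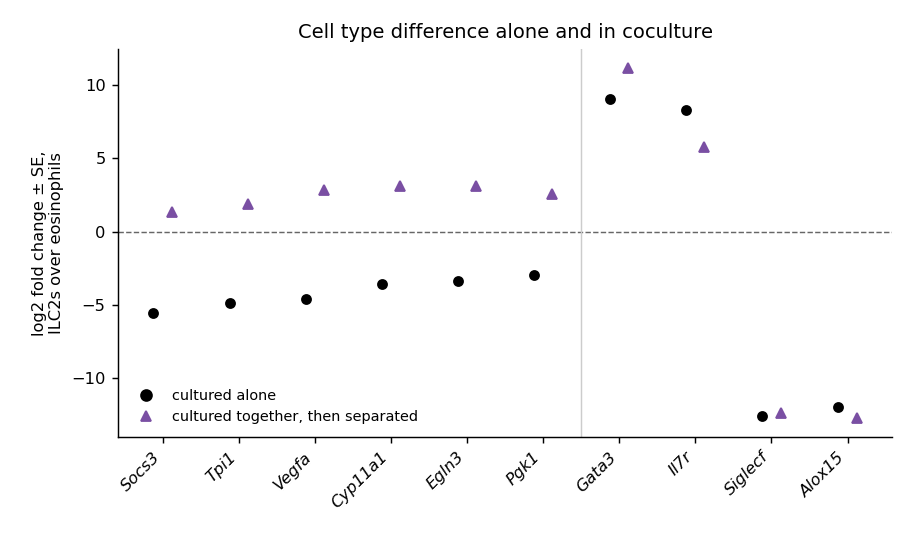
Log2 fold change ± SE, ILC2s over eosinophils, of 6 genes that changed sides and 4 that did not, with circles for cells cultured alone and triangles for cells cultured together and then separated. Vegfa moved from -4.60 to 2.85, while Siglecf stayed at -12.54 and -12.37.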

How the data were processed

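The deposited file holds counts of reads per gene for 49315 Ensembl genes in 12 libraries, in 4 groups of 3, and the authors made them from sequencing reads. Per the submitters' processing notes the tools were bcl2fastq 2.17, Trimmomatic 0.36, STAR 2.5.2b, featureCounts and Subread 1.5.2, with the build mm10. Gene annotation version, strandedness and multi-mapping rules were not given in the sources used here, so values of near-identical, overlapping and antisense genes are uncertain.

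Columns were matched to samples by name. GENCODE M21 gave symbols for 49056 identifiers and none for 259, and 73 symbols are carried by more than 1 identifier. Genes were filtered with filterByExpr over the 6 libraries, scaled by TMM and tested with edgeR 4.0.16 (R 4.3.3), quasi-likelihood, without covariates. P-values were adjusted by Benjamini-Hochberg over all tested genes, with calls under 0.05. Standard errors were taken as the absolute log2 fold change over the root of the F statistic. Ratios for genes with 1 to 3 counts in a cell carry exact 95% intervals, and genes at 0 are set against 3 counts over the group. These cover counting error only, and sequencing reads without molecular identifiers are not independent molecules. The steps were tested on simulated data in which only a small part of the genes differed. That does not test the scaling where most genes differ, as they do here.

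The compared genes and the 32 lists (830 genes, of which 2 are not in the table and 101 did not enter a test) were chosen with earlier results of these data known. Named genes were Gata3 and Siglecf, and the 12 most abundant strongly differing genes of each cell. With them came, from each list, up to 3 called genes a direction with a mean of 8 CPM or more in the higher cell. Up to 2 uncalled genes of each list were taken by highest mean, with no such floor. Also named were both genes of all 28 pairs, the most abundant genes within 1.5-fold, and 6 genes with opposite calls after coculture. That gave 246 genes, and 85 more were chosen after their values were seen. Some of these genes, and 3 of the 28 pairs in the plot of pairs, are not reported here. Upstream sequences came from RefSeq (GRCm38.p6). There were 15 alternative settings, among them DESeq2 1.42.0 and limma 3.58.1.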

Additional observations from a re-analysis of the deposited data

Results flagged for a closer look

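The effect of cell type, as a log2 difference of ILC2s over eosinophils, was compared between cells cultured alone and cells cultured together, as an interaction term in edgeR over all 12 libraries. Background for these values is that 51.5% of 15745 genes were called in this test. The rule for named genes picked 6 genes with opposite calls, so their change of sign is a description of how they were chosen. The effect alone minus the effect in coculture was -6.721 ± 0.09 (SE) for Tpi1, -6.922 ± 0.12 for Socs3, -6.479 ± 0.08 for Egln3, -6.687 ± 0.08 for Cyp11a1, -7.467 ± 0.14 for Vegfa and -5.565 ± 0.08 for Pgk1.

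A further 5 genes were looked at after their values were seen. The difference was -2.106 ± 0.36 for Gata3, which was 9.02 alone and 11.11 in coculture, both higher in ILC2s. Alone, Gata3 was at 768 ± 8.39 CPM in ILC2s and at 1.49 ± 0.721 CPM (68 counts) in eosinophils. Its coculture levels, given above, were lower in both cells, so the larger value in coculture rests on few counts in eosinophils. The difference between the contrasts was 2.480 ± 0.16 for Il7r (8.24 alone, 5.75 in coculture) and 0.698 ± 0.22 for Alox15 (-11.96 and -12.68). Il13 gave -7.432 ± 0.12, with -2.18 alone and 5.24 in coculture. Siglecf, at -0.19 ± 0.35, was not called.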

How the results depend on the processing

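Scaling had the largest effect. Relative to TMM, the median log2 fold change shifted by 0.57 under library totals and by 0.23 under upper quartile scaling. Genes higher in eosinophils numbered 3664 with library totals, and genes higher in ILC2s 8587. Upper quartile scaling gave 4761 and 7002, DESeq2 5646 and 5758, limma-voom 5802 and 5974, and no filter on low counts 6041 and 6740. Against a fold of 8 as the null, 1072 genes were called for ILC2s and 1001 for eosinophils. Of single-gene values, 4857 kept direction and side of the threshold, 55 passed it only under an alternative, 19 lost it and 19 turned sign. B2m, Laptm5, Ly6e, Il3ra, Il17ra, Csf1, Fli1, Prdx1 and Cox4i1, not called with TMM, were called higher in ILC2s with both of the other scalings named. With library totals those that turned were Cd44 (0.550), Ctsl (0.564), Ifnar2 (0.437), Ikzf2 (0.470), Irf9 (0.437), Lgals9 (0.527), Mcm4 (0.494), Rps27a (0.474), Rps27l (0.057), Rsrp1 (0.387), Stat3 (0.292), Tlr2 (0.442), Tnfrsf26 (0.416), Zeb1 (0.501), Zfpm1 (0.515) and mt-Nd5 (0.228). With upper quartile scaling they were Cd44 (0.214), Lgals9 (0.190) and Rsrp1 (0.050). Leaving out each library in turn gave 5717 to 6086 genes higher in ILC2s and 5662 to 5875 higher in eosinophils.

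A fit with a replicate block gave 5865 genes higher in ILC2s and 5724 higher in eosinophils. Deviations of libraries with the same number correlated at -0.093, 0.087 and 0.02 over 8648 genes, and ILC2 libraries 1 and 3 did not correlate best with their own number, so the numbers were not taken to pair the samples. Genes with few counts are limited by depth, since 3 counts correspond to 0.131 to 0.179 CPM.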
